A study of Homo sapiens with 15 samples.

Results

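The comparison sets senescent against young MRC-5 cells, primary fibroblasts that derive from fetal human lung, with TRF2 expressed from a virus in both states. TRF2, the product of TERF2, is a subunit of shelterin, the protein complex that covers telomeres. The comparison takes 6 of the 15 RNA-seq libraries of the series, namely the 3 libraries of senescent cells and the 3 libraries of young cells whose labels name TRF2 overexpression. The other 9 libraries come from young and senescent cells with the empty vector and from young cells with an siRNA against LMNB1. They entered the fit through the filter on low counts, the normalization and the shared estimate of the spread. Their own levels are used only where the empty vector or all young or senescent libraries are named.

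Cells of both groups carried pWPIR-GFP-TRF2, received a control siRNA before collection and grew in the same medium at reduced oxygen. The young cells were infected and collected at PD 30. The senescent cells were passaged to a pre-senescent stage before they were infected, and they were collected after they had stopped dividing. By the study's methods the young cells were collected within days of infection, whereas the senescent cells carried the TRF2 virus for many population doublings before their arrest. The comparison thus holds cells at unequal intervals after infection. By the labels, every senescent library was taken over from a previous deposit and no young one was, and the deposit and the state cannot be told apart. The study describes its replicates as biological, in triplicate, but the labels do not say whether they came from separate cultures, and if they did not, p-values measure only the spread between these libraries, which may be technical.

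Replicative senescence is the lasting arrest that cells enter after many divisions, when shortened telomeres activate the DNA damage response. The cyclin-dependent kinase inhibitors p21 and p16 then keep the retinoblastoma proteins active, and E2F target genes for DNA replication and mitosis stay silent. Senescent fibroblasts are known for the loss of lamin B1, for changes in chromatin and lysosomes, and often for the secretion of cytokines, proteases and growth factors.

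Total counts ranged from 32474298 to 37341181 in the young libraries and from 31895858 to 36202562 in the senescent ones. Levels are given as CPM, read counts scaled to the library size after TMM normalization. Changes are log2 fold changes of senescent over young cells (n = 3 libraries in each group), printed with a standard error (SE) after the ± sign. The SE was derived from the fold change and its test statistic. It rests on the spread estimated over all 15 libraries and is not the spread of the 6 libraries compared. Genes are said to rise or fall where edgeR's quasi-likelihood test gave an adjusted p below 0.05, and DEGs changed by at least 1 on the log2 scale in addition. TERF2 itself was at 128, 307 and 149 CPM in the young and 210.0, 285 and 209.9 CPM in the senescent libraries, with a log2 fold change of 0.27 ± 0.23 (adjusted p = 0.32). The groups overlapped, and replicate 2 held the highest value in both. Without replicate 2 of the young cells the log2 fold change was 0.76 and passed the test. Of 12 genes known to mark fibroblasts all were detected, and their summed level was between 32940.0 and 38930.0 CPM, here without the TMM factors, in the young libraries and between 33620.0 and 37930.0 in the senescent ones. Of 17 genes that mark epithelial, endothelial and blood cells, 7 had no count in any of the 6 libraries, among them PTPRC, NKX2-1 and SFTPC. Their summed level was 32.3 to 37.55 CPM in young and 58.06 to 68.19 in senescent cells, again without the TMM factors. Most of it came from TEK, an angiopoietin receptor, which with those factors was at 35.5, 34.7 and 30.2 CPM in the young and 62.2, 69.3 and 57.6 CPM in the senescent libraries. In such bulk libraries, fewer cells of a type and less RNA per cell cannot be told apart.

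The change between the states went with the GC content of the genes, and whether this is technical or biological was not tested. The log2 counts of the senescent libraries, relative to the mean of the young ones, rose by 0.449 to 0.468 for each 10 percentage points of GC content in the exons, against -0.0222 to 0.0307 within the young group. In the GC quartile of lowest content 50.2% of genes fell and 8.5% rose, and in that of highest content 11% fell and 55.6% rose. A fit with offsets for GC content and length in each library is therefore given beside part of the results. Counts and sizes printed without it can differ in that fit as well. A further 23 genes had more than 50 counts on average in the 9 young libraries of the series and 0 in all 6 senescent ones, and in every one of them 50% or more of the exonic bases also belong to other annotated genes. Another 4 genes had 0 counts in all young libraries and were counted in the senescent ones, and 0 of these share that much. Genes that share 50% or more of their exonic bases were DEGs that fell in 28.4% of cases, against 11.4% of genes that share none. The part of the counting in such changes was not tested.

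Of the 15799 genes tested, 4458 rose (28.2%) and 4753 fell (30.1%). These shares are the background for the member counts of all gene lists below. DEGs were 1884 genes that rose (11.9%) and 1910 that fell (12.1%). In 34.7% of genes all senescent libraries lay above all young ones, and in 36.6% they all lay below. The median log2 fold change over all genes was -0.02. With the offsets 1566 DEGs rose and 1652 fell, and 2777 genes were DEGs of the same direction in both fits, which is 73.2% of the DEGs without offsets and 86.3% of those with them. Across 44 lists of genes grouped by function, with 1225 tested members, the medians ran from -3.46 for mitosis to 1.19 for replication-dependent histones.

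The genes of the cell cycle engine were lower in senescent cells, apart from the D-type cyclins and cyclin E1. Of 18 cyclins and cyclin-dependent kinases 13 fell and 4 rose, with a median of -1.19. CDK1, the kinase that drives entry into mitosis, was at 37.9, 37.99 and 39.02 CPM in the young and 3.03, 2.58 and 3.82 CPM in the senescent libraries, and it fell by 3.602 ± 0.12 (adjusted p = 6.3e-13). CCNA2, cyclin A2, which partners it through S phase and G2, was at 57.2, 54.4 and 61.3 CPM in the young and 5.03, 5.09 and 5.53 CPM in the senescent libraries and fell by 3.46 ± 0.09 (adjusted p = 3.1e-14). No value of either gene overlapped between the groups. The D-type cyclins, which act at the start of the cycle, went the other way. CCND2 was at 16.9, 12.5 and 15.97 CPM in the young and 182, 219.5 and 169 CPM in the senescent libraries and rose by 3.65 ± 0.17 (adjusted p = 2.5e-11). CCND1 rose by 0.93 ± 0.10 (adjusted p = 7.1e-07) and CCND3 rose by 1.23 ± 0.09 (adjusted p = 1.1e-08). Of 19 E2F, pocket protein and MuvB genes, which regulate these and other cell cycle genes, 15 fell and 3 rose, with a median of -0.73. With the offsets 12 fell and 2 rose, with a median of -0.42. FOXM1, a transcription factor of the mitotic genes, was at 49.5, 47.5 and 51.3 CPM in the young and 6.44, 6.72 and 8.98 CPM in the senescent libraries and fell by 2.74 ± 0.15 (adjusted p = 1.9e-10). MYBL2, its partner on those promoters, fell by 3.801 ± 0.20 (adjusted p = 1.4e-10). E2F1, the best known activator of S phase genes, fell by 0.76 ± 0.18 (adjusted p = 0.0016).

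Among the 7 inhibitors of cyclin-dependent kinases 5 rose and 1 fell. CDKN2A, which encodes p16, was at 19.3, 16.1 and 17.7 CPM in the young and 57.3, 64.8 and 58.8 CPM in the senescent libraries and rose by 1.77 ± 0.17 (adjusted p = 1.5e-07). CDKN1A, which encodes p21, was at 1905, 1721 and 1959.8 CPM in the young and 3242, 3242 and 3429 CPM in the senescent libraries, and it rose by 0.83 ± 0.09 (adjusted p = 5.5e-07). CDKN2B, p15, rose by 0.76 ± 0.10 (adjusted p = 8.6e-06). All senescent libraries lay above all young ones for these 3 genes. CDKN1C, p57, rose by 1.12 ± 0.22 (adjusted p = 0.00033) on the log2 scale, but by 0.40 with the offsets, where it was no longer called. The gene that fell was CDKN2C, p18, an inhibitor of the kinases of G1 that E2F activates, at 17.8, 16.1 and 19.98 CPM in the young and 1.53, 1.69 and 1.795 CPM in the senescent libraries, and it fell by 3.42 ± 0.14 (adjusted p = 6.1e-12). Apart from CDKN1A, the targets of p53 showed no common direction: 12 of 28 rose and 8 fell, with a median of 0.12. PLK3, a stress kinase, rose by 0.87 ± 0.12 (adjusted p = 1.2e-05), and by 0.45 with the offsets. TP53INP1, a protein of the stress response, rose by 0.77 ± 0.15 (adjusted p = 3.9e-04), and by 1.22 with the offsets. TIGAR, a phosphatase of sugar metabolism, had the largest fall and fell by 1.72 ± 0.16 (adjusted p = 1.2e-07). The regulators of apoptosis were equally mixed, with 6 of 13 rising and 4 falling, or 4 and 4 with the offsets. BCL2, the founding inhibitor of cell death, fell by 1.24 ± 0.24 (adjusted p = 3.5e-04), and BAD, one of its antagonists, rose by 1.59 ± 0.19 (adjusted p = 2.4e-06).

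DNA replication genes fell almost without exception, 51 of 55 with 2 rising and a median of -1.60. MCM2, a subunit of the replicative helicase, was at 40.3, 40.99 and 45.2 CPM in the young and 9.4, 9.17 and 10.1 CPM in the senescent libraries and fell by 2.14 ± 0.12 (adjusted p = 1.8e-10). MCM10, a factor that activates this helicase at origins, was at 11.4, 13.7 and 10.6 CPM in the young and 0.733, 0.573 and 0.912 CPM in the senescent libraries and fell by 3.996 ± 0.17 (adjusted p = 1.0e-11). PCNA, the sliding clamp that repair also uses, fell less, by 0.79 ± 0.08 (adjusted p = 6.0e-07). Enzymes that supply nucleotides followed, with 22 of 25 falling and 1 rising. RRM2, the small subunit of ribonucleotide reductase in S phase, was at 129, 114 and 134 CPM in the young and 9.81, 10.03 and 12.6 CPM in the senescent libraries and fell by 3.54 ± 0.12 (adjusted p = 6.6e-13). The member that rose was RRM2B, the subunit of the same enzyme that p53 induces, which rose by 0.596 ± 0.15 (adjusted p = 0.0034). Homologous recombination and Fanconi genes fell in 31 of 31 cases, with a median of -1.84, and in 28 with the offsets. BRCA1, which promotes repair by recombination, was at 10.3, 14.3 and 12.2 CPM in the young and 1.85, 1.94 and 2.45 CPM in the senescent libraries and fell by 2.55 ± 0.16 (adjusted p = 1.1e-09).

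Mitosis showed the largest median of all lists. All 61 of its genes fell, 59 of them as DEGs, and in all 61 every senescent library lay below every young one. TOP2A, the topoisomerase that disentangles sister chromatids, was at 168, 195 and 177 CPM in the young and 13.6, 12.9 and 14.8 CPM in the senescent libraries, and it fell by 3.71 ± 0.14 (adjusted p = 1.9e-12). PLK1, a kinase of the spindle and of cytokinesis, fell by 3.38 ± 0.13 (adjusted p = 3.9e-12). MKI67, the proliferation marker that coats mitotic chromosomes, was at 43.7, 111 and 49.9 CPM in the young and 2.52, 2.64 and 3.25 CPM in the senescent libraries and fell by 4.598 ± 0.33 (adjusted p = 7.0e-09), and replicate 2 of the young cells was above the other two. KIF2C, a motor that takes microtubules apart, fell by 4.28 ± 0.17 (adjusted p = 3.5e-12), and TTK, a kinase of the spindle checkpoint, fell by 4.22 ± 0.17 (adjusted p = 6.1e-12). With the offsets the median of the list was -3.09 and all 61 members still fell. PRC1, which bundles the microtubules of the midzone, was the extreme case with 6242 counts over the young libraries and 1 count over the senescent ones, and 61.9% of its exonic bases are shared.

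**Figure D1:**
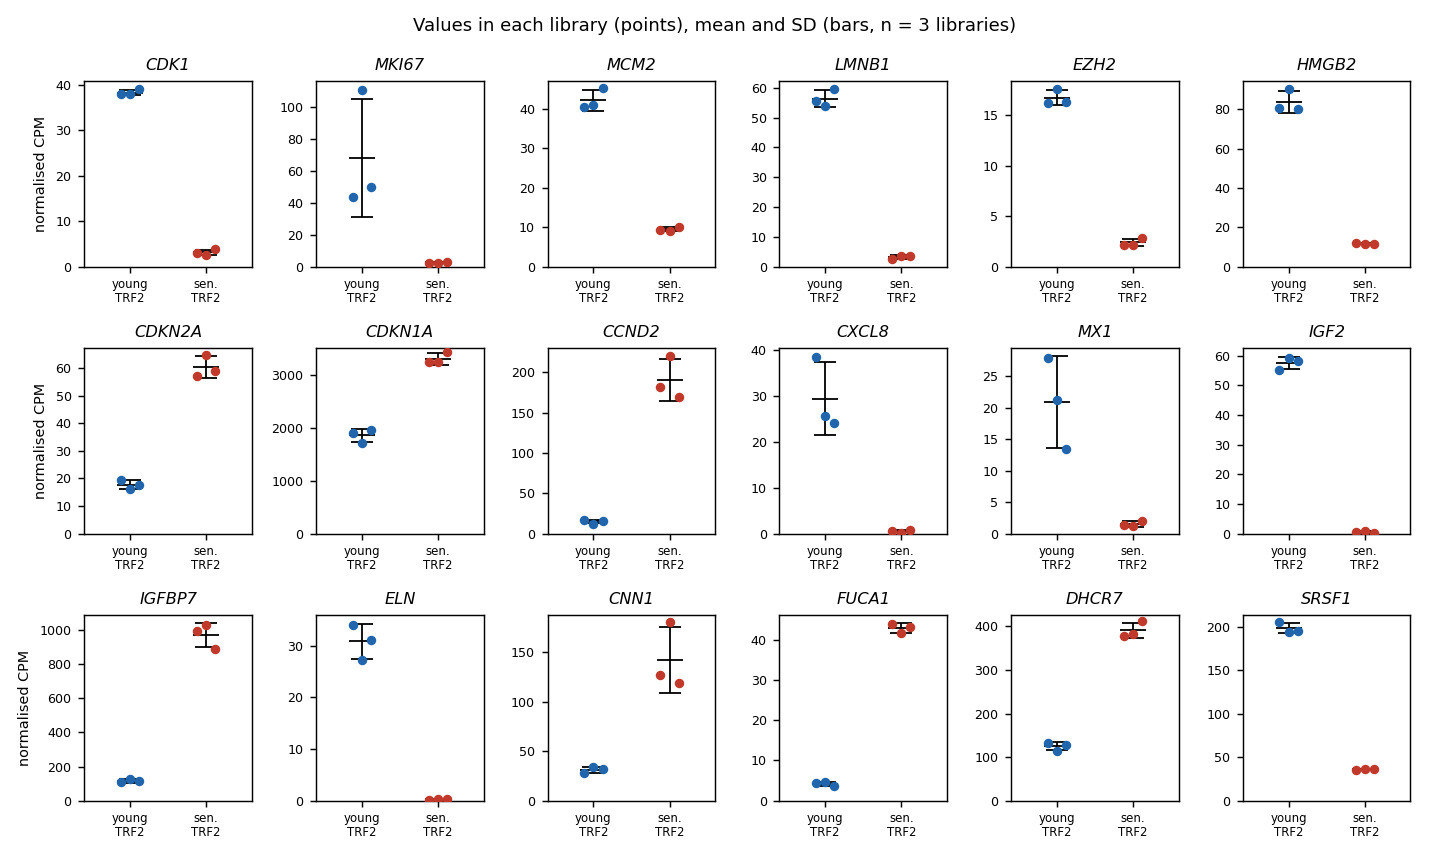
Normalised CPM (y axes, from 0) of 18 genes in the 3 young and the 3 senescent libraries with TRF2, with the mean and SD of each group. The groups do not overlap in any panel, and CDKN2A, CDKN1A, CCND2, IGFBP7, CNN1, FUCA1 and DHCR7 are the panels with higher values in senescent cells.

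Promoters of these genes were searched for the motifs through which the cell cycle machinery acts, in the 250 bases before the start given by RefSeq (GRCh38.p14). The cell cycle homology region, searched as TTTGAA on both strands, is bound by the MuvB complex. It was present in 25 of the 52 mitosis promoters found, or 48.1%, against 8.62% of the promoters of 11478 tested genes. Members with the motif had a median of -3.45 and members without it -3.56. The E2F site, searched as TTTCGCGC or TTTGGCGC on both strands, was present in 5 of 46 replication promoters, or 10.9%, against 1.59% of all. The printed sequences belong to 5 genes with a motif that fell, and show how close to the start it lies. MCM6 held the median log2 fold change of the 5 replication genes with the E2F site, -2.18. MCM7 of the same list, at -2.20, is not printed. They are printed 5′ to 3′ along the transcribed strand and end at the base before the start, with the motif of either strand in capitals. Positions are chr10:128126424-128126673 on the minus strand for MKI67, chr4:17810729-17810978 on the plus strand for NCAPG and chr1:197146670-197146919 on the minus strand for ASPM, with the cell cycle homology region, and chr11:65261712-65261961 on the plus strand for POLA2 and chr2:135876444-135876693 on the minus strand for MCM6, with E2F sites. NCAPG is a subunit of condensin I and ASPM a protein of the spindle poles. POLA2 is a subunit of DNA polymerase alpha and MCM6 a part of the replicative helicase.
MKI67: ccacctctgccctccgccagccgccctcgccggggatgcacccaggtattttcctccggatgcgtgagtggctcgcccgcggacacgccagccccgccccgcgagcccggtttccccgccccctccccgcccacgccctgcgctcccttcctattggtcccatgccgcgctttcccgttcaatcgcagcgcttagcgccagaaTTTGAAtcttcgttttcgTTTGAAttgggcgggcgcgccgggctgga
NCAPG: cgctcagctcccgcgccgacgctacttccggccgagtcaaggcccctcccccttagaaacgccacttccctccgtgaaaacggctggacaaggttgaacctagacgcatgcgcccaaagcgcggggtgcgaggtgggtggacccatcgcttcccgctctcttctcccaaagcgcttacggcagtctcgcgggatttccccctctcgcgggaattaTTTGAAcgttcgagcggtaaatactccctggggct
ASPM: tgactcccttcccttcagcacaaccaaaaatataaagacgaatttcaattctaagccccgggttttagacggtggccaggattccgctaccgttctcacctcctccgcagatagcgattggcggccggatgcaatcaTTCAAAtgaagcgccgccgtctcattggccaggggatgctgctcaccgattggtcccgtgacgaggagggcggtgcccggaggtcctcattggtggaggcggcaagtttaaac
POLA2: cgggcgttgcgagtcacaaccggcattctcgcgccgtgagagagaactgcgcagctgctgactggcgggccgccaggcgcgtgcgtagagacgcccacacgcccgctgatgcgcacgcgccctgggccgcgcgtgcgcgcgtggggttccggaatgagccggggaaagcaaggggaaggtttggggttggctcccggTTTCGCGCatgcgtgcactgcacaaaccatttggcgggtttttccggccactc
MCM6: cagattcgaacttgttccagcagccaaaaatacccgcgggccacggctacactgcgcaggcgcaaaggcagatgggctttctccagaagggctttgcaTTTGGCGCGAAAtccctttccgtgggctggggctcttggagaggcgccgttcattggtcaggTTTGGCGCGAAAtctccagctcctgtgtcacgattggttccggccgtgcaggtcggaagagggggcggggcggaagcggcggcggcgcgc
The start of MKI67 is preceded by 2 copies in the same orientation, the nearer one 23 bases away, and that of NCAPG by 1 copy at 29 bases. In ASPM the motif lies in the reverse orientation, 107 bases away. The MCM6 promoter holds 4 matches as 2 pairs, each a forward and a reverse match that overlap.

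Of the lamin genes LMNB1 fell most. LMNB1, lamin B1, was at 55.4, 53.9 and 59.4 CPM in the young and 2.68, 3.69 and 3.65 CPM in the senescent libraries, and it fell by 4.07 ± 0.13 (adjusted p = 1.8e-13). LMNA, which encodes lamins A and C, was at 1339, 1254 and 1425 CPM in the young and 1198, 1272 and 1242 CPM in the senescent libraries, with a log2 fold change of -0.11 ± 0.11 (adjusted p = 0.40), although with the offsets it fell by 0.65. Of 17 genes of the lamina and envelope 5 fell and 2 rose, and 9 fell and 3 rose with the offsets. The other falls included TMPO, which encodes the lamina-associated polypeptide 2 proteins and fell by 2.19 ± 0.11 (adjusted p = 6.2e-11), LBR, a receptor of lamin B and of heterochromatin at 80.3, 81.4 and 69.8 CPM in the young and 33.3, 31.8 and 35.1 CPM in the senescent libraries, and SYNE2, a nesprin that links the nucleus to actin and fell by 1.301 ± 0.19 (adjusted p = 2.7e-05).

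Chromatin factors fell in 24 of 37 cases and rose in 10. EZH2, the methyltransferase of Polycomb repressive complex 2, was at 16.2, 17.6 and 16.3 CPM in the young and 2.199, 2.197 and 2.82 CPM in the senescent libraries and fell by 2.79 ± 0.15 (adjusted p = 2.1e-10). UHRF1, which guides maintenance DNA methylation, fell by 1.72 ± 0.09 (adjusted p = 1.8e-10), and DNMT1, the methyltransferase it recruits, fell by 0.93 ± 0.10 (adjusted p = 7.7e-07). The members that rose included CBX7 and CBX8, chromodomain subunits of Polycomb repressive complex 1. CBX7 was at 2.44, 3.502 and 2.35 CPM in the young and 9.43, 10.7 and 9.802 CPM in the senescent libraries and rose by 1.85 ± 0.18 (adjusted p = 2.1e-07). High mobility group and replacement histone genes fell in 13 of 19 cases and rose in 1, or in 3 with the offsets. HMGB2, a DNA bending protein whose loss in senescence is well known, was at 80.6, 90.4 and 80.04 CPM in the young and 12.2, 11.6 and 11.5 CPM in the senescent libraries and fell by 2.83 ± 0.12 (adjusted p = 6.7e-12). HMGA2, a chromatin protein of fetal cells, was at 738, 720.0 and 743 CPM in the young and 137, 131 and 155 CPM in the senescent libraries and fell by 2.38 ± 0.19 (adjusted p = 2.0e-08). The replacement histone H2AZ1 fell by 2.11 ± 0.11 (adjusted p = 9.4e-11).

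Replication-dependent histones are made in S phase and end in a stem loop in place of a poly(A) tail. Their counts went against those of the replication machinery: 21 of the 28 tested members rose and 3 fell, with a median of 1.19. Of the other members of the 69, 4 were not analysed here and the rest, H4C3 among them, had too few counts to be tested. H2BC12, a gene of histone H2B, was at 30.9, 24.8 and 28.7 CPM in the young and 72.1, 64.6 and 74.5 CPM in the senescent libraries and rose by 1.32 ± 0.13 (adjusted p = 2.5e-07). H4C9, a gene of histone H4, was at 11.6, 8.696 and 9.33 CPM in the young and 17.7, 18.4 and 21.8 CPM in the senescent libraries, with a rise of 0.96. Most of the list was low, and the median of the group means was 1.31 CPM in young and 1.95 CPM in senescent cells.

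Cytokines and growth factors of the secretory phenotype fell more often than they rose. Of 38 such genes 30 passed the filter, of which 19 fell and 7 rose, with a median of -0.98. The inflammatory members were the lowest. CXCL8, interleukin 8, a chemokine for neutrophils, was at 38.4, 25.6 and 24.05 CPM in the young and 0.5098, 0.255 and 0.712 CPM in the senescent libraries, and it fell by 5.87 ± 0.54 (adjusted p = 1.2e-07). IL1A, an alarmin that drives much of the secretory programme, had 135 counts over the young libraries and 0 over the senescent ones, and was thus at least 43-fold lower against a floor of 3 counts over the group. CXCL1, which shares a receptor with CXCL8, had 290 and 2 counts, a ratio of 139 (95% counting interval 38 to 1150). IL6, the cytokine most often used as a marker of this phenotype, was low in both states at 4.54, 4.54 and 3.23 CPM in the young and 2.01, 1.91 and 1.85 CPM in the senescent libraries and fell by 1.09 ± 0.19 (adjusted p = 1.4e-04). The members below the filter had at most 17 counts in any library. Those that rose included growth and patterning factors. TGFB2, a transforming growth factor, was at 13.5, 16.1 and 14.2 CPM in the young and 50.6, 58.2 and 44.4 CPM in the senescent libraries and rose by 1.804 ± 0.33 (adjusted p = 1.8e-04). BMP4, a bone morphogenetic protein, rose by 1.33 ± 0.24 (adjusted p = 1.4e-04), and NRG1, a growth factor of the neuregulin family, rose by 1.01 ± 0.12 (adjusted p = 2.2e-06).

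Interferon-stimulated genes, the antiviral programme, fell in 26 of 39 cases and rose in 4, with a median of -1.24. MX1, a GTPase that traps viral particles, was at 27.9, 21.2 and 13.5 CPM in the young and 1.37, 1.15 and 2.05 CPM in the senescent libraries and fell by 3.77 ± 0.32 (adjusted p = 5.3e-08). IFI44, a protein of the same response, was at 8.72, 8.55 and 5.54 CPM in the young and 0.605, 0.3502 and 0.627 CPM in the senescent libraries and fell by 3.83 ± 0.30 (adjusted p = 2.0e-08). XAF1, a proapoptotic member, had 79 counts over the young libraries and 0 over the senescent ones, at least 25.2-fold lower. Of the exonic bases of XAF1 38.3% are shared, so that counting and state cannot be told apart for its fall. IFI6, a mitochondrial and endoplasmic reticulum protein, fell by 0.95 ± 0.29 (adjusted p = 0.0098). ISG15, the ubiquitin-like modifier, was at 53.7, 45.3 and 46.8 CPM in the young and 38.1, 39.9 and 42.97 CPM in the senescent libraries, a log2 fold change of -0.27 ± 0.22 (adjusted p = 0.31), and it fell by 0.89 with the offsets and by 0.26 in a fit of the 6 libraries alone, both past the test. Those that rose were led by LGALS3BP, a secreted glycoprotein, at 172, 191 and 172 CPM in the young and 516, 609 and 524 CPM in the senescent libraries, which rose by 1.62 ± 0.09 (adjusted p = 3.5e-10). TAP1, the peptide transporter of antigen presentation, rose by 0.75 ± 0.08 (adjusted p = 4.6e-07). Setting the genes at 0 to their bounds left the medians of this list and of the cytokine list at the same values.

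The interferon-stimulated response element, searched as GAAA, any 2 bases and GAAA on both strands, was present in 18 of the 29 promoters found for this list, or 62.1%, against 2.42% of all. The members with it had a median of -1.42 and those without it a median of -0.38. The 3 promoters with the motif whose genes fell most are shown to place it relative to the start, again with the matches in capitals, at chr1:78620198-78620447 on the plus strand for IFI44L, chr1:78649539-78649788 on the plus strand for IFI44 and chr12:112938224-112938473 on the plus strand for OAS3. OAS3 makes the oligoadenylates that activate RNase L, and IFI44L is a close relative of IFI44.
IFI44L: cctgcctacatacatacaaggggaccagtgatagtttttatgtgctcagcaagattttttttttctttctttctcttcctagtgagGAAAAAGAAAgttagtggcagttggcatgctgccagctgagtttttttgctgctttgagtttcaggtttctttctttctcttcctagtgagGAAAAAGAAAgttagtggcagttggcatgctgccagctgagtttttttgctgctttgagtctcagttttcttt
IFI44: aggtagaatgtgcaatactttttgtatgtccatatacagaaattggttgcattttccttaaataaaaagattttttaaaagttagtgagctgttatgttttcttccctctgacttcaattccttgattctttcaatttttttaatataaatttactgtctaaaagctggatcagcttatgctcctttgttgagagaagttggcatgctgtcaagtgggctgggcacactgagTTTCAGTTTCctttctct
OAS3: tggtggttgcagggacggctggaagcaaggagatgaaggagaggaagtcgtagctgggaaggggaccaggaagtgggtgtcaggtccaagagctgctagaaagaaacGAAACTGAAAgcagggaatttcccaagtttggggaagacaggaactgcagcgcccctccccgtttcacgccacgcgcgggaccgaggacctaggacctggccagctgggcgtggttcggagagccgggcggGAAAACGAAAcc
IFI44L, which fell by 6.02 ± 0.63 (adjusted p = 5.2e-07), has the same 10 letters in 2 copies within a repeated stretch, IFI44 has 1 reverse copy 8 bases from the start, and OAS3, which fell by 3.26 ± 0.19 (adjusted p = 3.8e-10), has 2 copies, of which 1 is 2 bases from the start.

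Immediate early genes were lower as well, 13 of 22 against 5 that rose, or 13 and 3 with the offsets. FOS, a subunit of AP-1, was at 97.1, 88.3 and 68.99 CPM in the young and 29.98, 15.9 and 12.1 CPM in the senescent libraries and fell by 2.14 ± 0.35 (adjusted p = 5.8e-05). EGR1, a zinc finger factor of the growth factor response, was at 341, 433 and 277 CPM in the young and 68.9, 52.6 and 41.3 CPM in the senescent libraries and fell by 2.69 ± 0.20 (adjusted p = 9.0e-09). JUN, the partner of FOS, went the other way and rose by 0.57 ± 0.13 (adjusted p = 0.0011). In prostaglandin synthesis the cyclooxygenases parted. PTGS1, the constitutive enzyme, was at 369.9, 352 and 361 CPM in the young and 642, 608 and 681 CPM in the senescent libraries and rose by 0.83 ± 0.09 (adjusted p = 9.1e-07). PTGS2, the inducible enzyme, was at 17.1, 11.7 and 13.5 CPM in the young and 5.99, 3.95 and 5.56 CPM in the senescent libraries and fell by 1.45 ± 0.34 (adjusted p = 0.0015). TBXAS1, thromboxane synthase, rose by 1.63 ± 0.10 (adjusted p = 8.3e-10), while PTGDS, which makes prostaglandin D2, was at 2.99, 3.502 and 2.13 CPM in the young and 0.0956, 0 and 0.05699 CPM in the senescent libraries and fell by 5.71 ± 0.50 (adjusted p = 6.3e-08). Of the exonic bases of PTGDS 23.4% are shared. The list as a whole had 7 of 16 genes that rose and 5 that fell, and 5 and 7 with the offsets.

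Matrix proteases changed in both directions, 10 of 22 up and 7 down, where 28.2% and 30.1% of all genes did. MMP1, interstitial collagenase, was at 786, 686 and 733 CPM in the young and 269, 199 and 326 CPM in the senescent libraries and fell by 1.47 ± 0.27 (adjusted p = 2.1e-04). MMP3, stromelysin, was at 37.6, 28.8 and 34.4 CPM in the young and 141, 74.8 and 121 CPM in the senescent libraries and rose by 1.74 ± 0.22 (adjusted p = 5.5e-06). TIMP1, an inhibitor of both, was at 737, 692 and 729 CPM in the young and 1571, 1591 and 1576 CPM in the senescent libraries and rose by 1.13 ± 0.14 (adjusted p = 3.5e-06). MMP12, the elastase of macrophages, had 2 counts over the young libraries and 103 over the senescent ones, a ratio of 53.9 (95% counting interval 14.5 to 451). MMP11 and MMP24, at a few CPM, rose as well, by 2.46 ± 0.16 (adjusted p = 2.1e-09) and by 3.14 ± 0.26 (adjusted p = 2.8e-08) on the log2 scale.

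Of 27 collagen genes 19 fell and 4 rose, with a median of -0.68, and the chains of type I collagen were not called. COL1A1, the main chain of type I collagen, was at 13948, 14857 and 14886 CPM in the young and 13809, 17217 and 13316 CPM in the senescent libraries, a log2 fold change of 0.02 ± 0.10 (adjusted p = 0.87), and COL1A2, its partner chain, had one of 0.12 ± 0.11 (adjusted p = 0.36). With the offsets COL1A1 fell by 0.58. COL3A1, type III collagen, was at 2105, 2521 and 2015 CPM in the young and 596, 688 and 514 CPM in the senescent libraries, and it fell by 1.89 ± 0.18 (adjusted p = 1.8e-07). COL5A3, a chain of type V, fell by 3.97 ± 0.22 (adjusted p = 2.0e-10), and COL15A1, a basement membrane collagen, fell by 2.91 ± 0.23 (adjusted p = 1.6e-08). The chains that rose were COL4A6 of basement membranes, COL11A1, a minor fibrillar chain, COL18A1 and COL4A5. COL4A6 was at 16.1, 31.1 and 13.7 CPM in the young and 108, 142 and 101 CPM in the senescent libraries and rose by 2.53 ± 0.25 (adjusted p = 2.5e-07). COL11A1 rose by 1.98 ± 0.23 (adjusted p = 1.7e-06).

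Among 43 other matrix genes 15 fell and 10 rose, near the shares of 30.1% and 28.2% over all genes. ELN, elastin, showed one of the deepest falls, at 34.1, 27.3 and 31.2 CPM in the young and 0.159, 0.3502 and 0.342 CPM in the senescent libraries, and it fell by 6.74 ± 0.21 (adjusted p = 2.0e-13). POSTN, periostin, a matricellular protein of growing tissue, was at 110.1, 140.1 and 89.4 CPM in the young and 3.57, 3.92 and 3.62 CPM in the senescent libraries and fell by 4.93 ± 0.17 (adjusted p = 6.4e-13). HAS2, the main hyaluronan synthase, was at 47.2, 50.3 and 62 CPM in the young and 2.804, 2.83 and 2.96 CPM in the senescent libraries and fell by 4.21 ± 0.25 (adjusted p = 4.4e-10). FN1, fibronectin, had a log2 fold change of -0.11 ± 0.19 (adjusted p = 0.63), and its groups overlapped. LTBP3, which holds latent transforming growth factor beta in the matrix, was at 47.8, 54.5 and 51.95 CPM in the young and 270.2, 292 and 278 CPM in the senescent libraries and rose by 2.44 ± 0.10 (adjusted p = 6.3e-12), and EFEMP2, an organiser of elastic fibres, rose by 1.43 ± 0.12 (adjusted p = 3.7e-08).

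Of 24 contractile genes of the myofibroblast 10 rose and 6 fell, where 28.2% and 30.1% of all genes did. CNN1, calponin of smooth muscle, was at 28.1, 34.04 and 31.7 CPM in the young and 127, 180.2 and 119 CPM in the senescent libraries and rose by 2.18 ± 0.17 (adjusted p = 2.1e-08). ACTA2, smooth muscle actin, was at 42.1, 32.2 and 47.4 CPM in the young and 103, 118 and 93.7 CPM in the senescent libraries and rose by 1.37 ± 0.16 (adjusted p = 1.9e-06). LMOD1, leiomodin, which nucleates actin filaments, rose by 2.64 ± 0.27 (adjusted p = 4.3e-07). MYOCD, the coactivator of many smooth muscle genes, fell at the same time, by 1.26 ± 0.22 on the log2 scale (adjusted p = 0.00012). Of 23 integrins and cadherins 9 rose and 6 fell, or 12 and 7 with the offsets. ITGA7, a laminin receptor, was at 11.1, 12.2 and 12.1 CPM in the young and 103, 104 and 107 CPM in the senescent libraries and rose by 3.15 ± 0.09 (adjusted p = 8.5e-14). ITGA11, a collagen receptor of fibroblasts, rose by 1.21 ± 0.10 (adjusted p = 5.1e-08), and ITGB3, a chain of the vitronectin receptor, rose by 2.05 ± 0.13 (adjusted p = 1.6e-09). CDH2, N-cadherin, was at 64.3, 67.2 and 67.2 CPM in the young and 22.1, 23.1 and 23.5 CPM in the senescent libraries and fell by 1.53 ± 0.11 (adjusted p = 6.5e-09).

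In the insulin-like growth factor system the counts of the ligand IGF2 fell, and those of the binding proteins named here rose. IGF2, a fetal growth factor, was at 55.2, 59.1 and 58.3 CPM in the young and 0.637, 0.923 and 0.285 CPM in the senescent libraries, and it fell by 6.56 ± 0.25 (adjusted p = 2.8e-12). Of the exonic bases of IGF2 44.4% are shared, so that counting and state cannot be told apart for its fall. IGFBP7 was at 107, 129.8 and 117 CPM in the young and 993, 1029.8 and 892 CPM in the senescent libraries and rose by 3.04 ± 0.13 (adjusted p = 6.1e-12). IGFBP5 was at 2132, 2511 and 2239 CPM in the young and 6474, 8242 and 5022 CPM in the senescent libraries and rose by 1.52 ± 0.22 (adjusted p = 2.0e-05). IGFBP2 rose by 3.17 ± 0.23 (adjusted p = 9.0e-09). In the plasminogen system SERPINB2, an inhibitor of plasminogen activators, was at 56.6, 54.5 and 56.8 CPM in the young and 5.35, 6.08 and 4.82 CPM in the senescent libraries and fell by 3.37 ± 0.26 (adjusted p = 1.7e-08). Together 12 of the 19 tested genes of these systems rose and 6 fell.

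Signalling pathways showed members of either direction, and over all genes 28.2% rose and 30.1% fell. Of 18 Notch genes 7 rose and 5 fell, but 3 rose and 6 fell with the offsets. JAG1, a ligand, was at 28.3, 27.04 and 25.8 CPM in the young and 74.1, 62.5 and 75.1 CPM in the senescent libraries and rose by 1.38 ± 0.15 (adjusted p = 9.8e-07). NOTCH3, a receptor of mural cells, rose by 1.27 ± 0.15 (adjusted p = 2.2e-06), and by 0.53 with the offsets. HES1, a target of the pathway, was at 7.498, 9.29 and 7.14 CPM in the young and 0.637, 0.223 and 0.285 CPM in the senescent libraries and fell by 4.38 ± 0.42 (adjusted p = 2.0e-07). DLL4, another ligand, fell by 2.21 ± 0.24 (adjusted p = 8.8e-07). Of 25 Wnt genes 10 rose and 6 fell. WNT16, a ligand known from senescent fibroblasts, was at 30.04, 25.6 and 28.7 CPM in the young and 211, 214 and 219 CPM in the senescent libraries and rose by 2.93 ± 0.15 (adjusted p = 7.5e-11). WNT2, a ligand of lung mesenchyme, was at 2.83, 2.52 and 1.57 CPM in the young and 0.351, 0.223 and 0.142 CPM in the senescent libraries and fell by 3.27 ± 0.43 (adjusted p = 6.8e-06), and DKK1, a secreted inhibitor, fell by 1.64 ± 0.10 (adjusted p = 1.4e-09). Of 28 genes of the transforming growth factor and bone morphogenetic protein pathways 10 rose and 9 fell, with antagonists on both sides. FST, follistatin, a trap for activins, was at 313, 346 and 301 CPM in the young and 68.6, 77.3 and 69.5 CPM in the senescent libraries and fell by 2.16 ± 0.11 (adjusted p = 6.5e-11). NOG, noggin, a trap for bone morphogenetic proteins, rose by 1.94 ± 0.12 (adjusted p = 9.9e-10). PDGFB, a platelet-derived growth factor, was at 1.09, 1.78 and 1.78 CPM in the young and 32.7, 39.8 and 32.9 CPM in the senescent libraries and rose by 4.51 ± 0.20 (adjusted p = 1.1e-11). Its relatives PDGFC and PDGFD fell, by 0.97 ± 0.11 (adjusted p = 1.2e-06) and 1.804 ± 0.28 (adjusted p = 4.0e-05) on the log2 scale.

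Genes of positional and cell identity showed no common direction. Among 27 transcription factors of lung mesenchyme 9 rose and 9 fell, near the shares of 28.2% and 30.1% over all genes. FOXF1, which specifies it, was at 298, 279.7 and 269 CPM in the young and 415, 425 and 403 CPM in the senescent libraries and rose by 0.55 ± 0.07 (adjusted p = 5.6e-06). PRRX1, a homeobox factor of fibroblasts, was at 122.7, 116 and 120.5 CPM in the young and 17.1, 18.3 and 19.3 CPM in the senescent libraries and fell by 2.72 ± 0.12 (adjusted p = 1.2e-11). Of 39 HOX genes 17 were tested, 4 rose and 6 fell. HOXA5, the HOX gene known for its role in the lung, was at 8.29, 8.07 and 8.58 CPM in the young and 9.37, 8.37 and 9.203 CPM in the senescent libraries, a log2 fold change of 0.11 ± 0.12 (adjusted p = 0.45), and it rose by 0.33 with the offsets. HOXC8 was at 3.097, 3.35 and 3.26 CPM in the young and 0.127, 0 and 0.171 CPM in the senescent libraries and fell by 4.94 ± 0.39 (adjusted p = 1.8e-08). HOXC9 had 28 counts over the young libraries and 0 over the senescent ones, at least 8.92-fold lower. THY1 and S100A4, both used as markers of fibroblasts, moved apart. THY1 was at 214, 213 and 212 CPM in the young and 661, 630.0 and 653 CPM in the senescent libraries and rose by 1.605 ± 0.10 (adjusted p = 8.7e-10). S100A4, a calcium-binding protein, was at 125, 103 and 115 CPM in the young and 8.03, 8.12 and 8.46 CPM in the senescent libraries and fell by 3.798 ± 0.15 (adjusted p = 3.1e-12). VIM, vimentin, fell by 0.76 ± 0.09 (adjusted p = 3.0e-06).

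Clustered protocadherins, adhesion proteins expressed in cell-specific combinations from variable promoters, had 39 of 53 members tested, of which 26 rose and 5 fell, with a median of 1.05. PCDHB8 was at 0.136, 0.0594 and 0.0313 CPM in the young and 3.95, 2.96 and 3.22 CPM in the senescent libraries and rose by 5.37 ± 0.51 (adjusted p = 1.8e-07), and PCDHB9 was at 0.0815, 0.297 and 0.125 CPM in the young and 4.84, 4.52 and 4.42 CPM in the senescent libraries and rose by 4.75 ± 0.37 (adjusted p = 1.9e-08). The falls were in the gamma cluster, where PCDHGC3 was at 75.2, 76.4 and 77.6 CPM in the young and 39.7, 39.3 and 36.96 CPM in the senescent libraries and fell by 0.98 ± 0.16 (adjusted p = 5.5e-05). Gamma transcripts have their last exons in common, and PCDHGC3 shares 40.1% of its exonic bases, so that reads of the common part cannot be assigned to 1 member.

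Cholesterol and fatty acid synthesis rose in most members, 26 of 32 genes with 1 that fell and a median of 0.73, and 27 rose with the offsets. MVD, which makes isopentenyl diphosphate, was at 57.2, 58.9 and 63.8 CPM in the young and 252, 240.0 and 275 CPM in the senescent libraries and rose by 2.09 ± 0.15 (adjusted p = 5.8e-09). DHCR7, which makes cholesterol in the last step, was at 132, 115 and 128 CPM in the young and 378, 383 and 412 CPM in the senescent libraries and rose by 1.65 ± 0.09 (adjusted p = 1.3e-10). EBP, an isomerase of the late pathway and the gene that fell, was at 31.2, 28.4 and 32.2 CPM in the young and 11.5, 10.6 and 12.7 CPM in the senescent libraries. Of its exonic bases 36.4% are shared.

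Lysosomal genes rose in 19 of 38 cases and fell in 8, with a median of 0.25. GLB1, the beta-galactosidase behind the usual stain for senescent cells, was at 109.6, 122.6 and 118 CPM in the young and 140.5, 141 and 145 CPM in the senescent libraries, and it rose by 0.28 ± 0.07 (adjusted p = 0.0037). FUCA1, alpha-fucosidase, was at 4.32, 4.6 and 3.57 CPM in the young and 44, 41.6 and 43.2 CPM in the senescent libraries and rose by 3.36 ± 0.18 (adjusted p = 1.3e-10). GAA, the glucosidase that breaks down glycogen, rose by 2.05 ± 0.15 (adjusted p = 8.3e-09). TFEB, the transcription factor of the lysosomal programme, was at 3.53, 3.26 and 3.23 CPM in the young and 6.63, 7.04 and 7.58 CPM in the senescent libraries and rose by 1.08 on the log2 scale, and by 0.49 with the offsets. CTSK, a collagen-degrading cathepsin, was at 93.8, 105 and 85.1 CPM in the young and 18.1, 17.6 and 21.3 CPM in the senescent libraries and fell by 2.32 ± 0.16 (adjusted p = 3.9e-09). The CLEAR element, searched as TCACGTG on both strands, was found in 29.2% of 24 lysosomal promoters and in 5.18% of all.

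In glycolysis 11 of 27 genes rose and 8 fell, and 8 rose and 10 fell with the offsets. LDHA, lactate dehydrogenase A, was at 1101, 887 and 1029 CPM in the young and 607, 624 and 628 CPM in the senescent libraries and fell by 0.699 ± 0.09 (adjusted p = 6.8e-06). SLC2A1, the glucose carrier GLUT1, was at 333, 303 and 317 CPM in the young and 493, 500.1 and 513 CPM in the senescent libraries and rose by 0.66 ± 0.12 (adjusted p = 1.7e-04), whereas SLC2A3, GLUT3, fell by 1.304 ± 0.09 (adjusted p = 3.8e-09). PDK4, which holds pyruvate back from the mitochondria, was at 0.136, 0 and 0.0939 CPM in the young and 13.99, 14.5 and 13.9 CPM in the senescent libraries and rose by 7.43 ± 0.42 (adjusted p = 3.5e-10). Nuclear genes of oxidative phosphorylation rose in 8 and fell in 30 of 78 cases, and with the offsets in 14 and 11. Of the 13 genes that mitochondrial DNA encodes 1 rose and 2 fell, and these genes held 1.97% to 2.13% of the counts of the senescent and 2.06% to 2.75% of those of the young libraries. In the antioxidant list 10 of 28 rose and 5 fell, and 16 rose and 2 fell with the offsets. GPX3, a secreted glutathione peroxidase, was at 8.23, 9.35 and 7.83 CPM in the young and 33.6, 37.8 and 34.9 CPM in the senescent libraries and rose by 2.06 ± 0.13 (adjusted p = 1.2e-09), and the metallothionein MT1E was at 141, 125 and 132 CPM in the young and 32.8, 30.8 and 33.7 CPM in the senescent libraries and fell by 2.03 ± 0.22 (adjusted p = 8.1e-07).

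Genes of RNA and protein metabolism fell more often than they rose. Splicing factors fell in 25 of 37 cases and rose in 0 by edgeR's test. DESeq2's Wald test and an unadjusted p below 0.05 gave 0 rises as well, and the offsets gave 1. SRSF1, a serine and arginine rich factor, was at 206, 195 and 196 CPM in the young and 35.3, 36.7 and 36.5 CPM in the senescent libraries and fell by 2.46 ± 0.09 (adjusted p = 9.5e-13). HNRNPA1, which often opposes it, was at 1058, 1009.6 and 995 CPM in the young and 308, 332 and 299 CPM in the senescent libraries and fell by 1.71 ± 0.08 (adjusted p = 1.7e-11). Ribosome biogenesis fell in 24 of 30 cases and rose in 2. NPM1, nucleophosmin, was at 1067, 1014 and 979 CPM in the young and 438, 449 and 443 CPM in the senescent libraries and fell by 1.202 ± 0.08 (adjusted p = 1.5e-09), and NCL, nucleolin, fell by 0.82 ± 0.09 (adjusted p = 6.7e-07). Cytosolic ribosomal proteins fell in 37 of 81 cases and rose in 7, by small amounts with a median of -0.32, and -0.17 with the offsets. The endoplasmic reticulum and amino acid stress genes fell in 17 of 27 cases and rose in 6. HSPA5, the chaperone BiP, was at 1582, 1637 and 1554 CPM in the young and 677, 692 and 699 CPM in the senescent libraries and fell by 1.21 ± 0.07 (adjusted p = 5.1e-10). ATF4, the transcription factor of amino acid stress, fell by 0.67 ± 0.15 (adjusted p = 0.0012), and PSAT1, a serine synthesis gene that it activates, fell by 1.71 ± 0.21 (adjusted p = 2.6e-06). HSPB1, a small heat shock protein, rose instead, at 439, 364 and 472 CPM in the young and 1089.9, 1135 and 1108 CPM in the senescent libraries, by 1.39 ± 0.18 (adjusted p = 4.6e-06).

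Of 16 genes of telomere maintenance, TERF2 included, 9 fell and 4 rose, and 7 fell and 2 rose with the offsets. POT1, which covers the single strand of telomeres, was at 13.9, 13.3 and 13.9 CPM in the young and 6.28, 6.59 and 6.38 CPM in the senescent libraries and fell by 1.096 ± 0.12 (adjusted p = 6.4e-07). DKC1, dyskerin of the telomerase particle, was at 81.8, 82.95 and 85.8 CPM in the young and 38.6, 40.3 and 40.1 CPM in the senescent libraries, a fall of 1.07 on the log2 scale. TERF2IP, RAP1, the partner of TRF2, rose by 0.36 ± 0.07 (adjusted p = 4.6e-04), and ACD, TPP1, rose by 0.97 ± 0.15 (adjusted p = 4.5e-05). TERT, the telomerase reverse transcriptase, was below the filter. In the circadian clock 6 of 17 rose and 5 fell, near the shares of 28.2% and 30.1% over all genes. DBP, an output gene of the clock, was at 1.603, 1.31 and 1.82 CPM in the young and 6.31, 7.77 and 6.75 CPM in the senescent libraries and rose by 2.14 ± 0.32 (adjusted p = 2.7e-05), and CRY2, a repressor of it, rose by 0.96 ± 0.09 (adjusted p = 1.9e-07).

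Over all genes, the protein-coding DEGs of largest change without any shared exonic base included members of no list. HEPH, an iron oxidase, had 1060 counts over the young and 1 over the senescent libraries, a ratio of 1010 (95% counting interval 181 to 40000). TNFAIP6, a hyaluronan-binding protein of inflammation, was at 9.05, 7.66 and 7.64 CPM in the young and 0.0956, 0.0955 and 0.0855 CPM in the senescent libraries and fell by 6.41 ± 0.32 (adjusted p = 6.4e-11). ATXN7, a subunit of a histone acetyltransferase complex, was at 21.9, 23.95 and 18.7 CPM in the young and 0.542, 0.446 and 0.598 CPM in the senescent libraries and fell by 5.33 ± 0.31 (adjusted p = 4.3e-10). PCDH10, a protocadherin outside the clusters, fell by 4.92 ± 0.20 (adjusted p = 5.1e-12), KCNK2, a potassium channel, fell by 4.32 ± 0.18 (adjusted p = 8.5e-12), and NRK, a kinase, fell by 4.69 ± 0.27 (adjusted p = 3.5e-10). EEF1A2, the elongation factor of muscle and neurons, was at 5.22, 6.32 and 6.23 CPM in the young and 178, 165 and 183 CPM in the senescent libraries and rose by 4.89 ± 0.16 (adjusted p = 3.9e-13). CLSTN2, a calsyntenin, was at 0.163, 0.594 and 0.4697 CPM in the young and 13.7, 16.9 and 13.02 CPM in the senescent libraries and rose by 5.16 ± 0.32 (adjusted p = 1.0e-09). NPY, neuropeptide Y, was at 0.489, 0.415 and 0.282 CPM in the young and 8.89, 12.1 and 8.78 CPM in the senescent libraries and rose by 4.62 ± 0.34 (adjusted p = 7.3e-09). ACKR3, a scavenging receptor of chemokines, rose by 4.48 ± 0.42 (adjusted p = 1.5e-07), and ITIH5, a hyaluronan-associated protein, rose by 6.800 ± 0.53 (adjusted p = 1.5e-08). PALM2AKAP2, a scaffold for protein kinase A, had the largest value of all, with 2 counts over the young libraries and 65872 over the senescent ones. The other young groups were as low, at 0, 0 and 0 CPM with the empty vector, so that for this gene, too, counting and state cannot be told apart. The same holds for LDHB, the other lactate dehydrogenase, at 695, 648 and 657 CPM in the young and 0.828, 1.11 and 0.798 CPM in the senescent libraries, for ASNS, asparagine synthetase, at 114, 101 and 101 CPM in the young and 0.5098, 0.287 and 0.342 CPM in the senescent libraries, and for SDHA, a subunit of complex II, at 120.3, 122 and 122 CPM in the young and 1.75, 2.101 and 1.34 CPM in the senescent libraries, where 33.4%, 49.3% and 21.7% of the exonic bases are shared.

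The effect of senescence with TRF2 was set against that with the empty vector, measured in other libraries, by the interaction in the same model. By the study, senescent cells with TRF2 had gone through more population doublings than those with the empty vector. The vector and these doublings cannot be told apart here. The quantity compared is the effect of senescence. This effect was lower with TRF2 for 151 genes (0.956% of those tested) and higher for 28 (0.177%). These counts depended on the libraries in the fit. A fit of only the 12 libraries of the 4 groups gave 7 and 1, and leaving out the senescent empty-vector replicate 1 gave 1100 and 989. Without replicate 2 of that group the counts were 57 and 12, and without replicate 3 they were 226 and 115. By GC content replicate 3 stood apart. Relative to the young TRF2 libraries its log2 counts rose by 0.79 for each 10 percentage points, against 0.43 and 0.47 in replicates 1 and 2. Its part in the counts was not tested. The genes CTSK, STC2, ASS1 and SRGN were called under all alternatives tried. CTSK, cathepsin K, was at 78.5, 71.7 and 76.8 CPM in young and 36.4, 49.1 and 65.7 CPM in senescent cells under the empty vector. Its log2 fold changes were -0.58 there and -2.32 with TRF2, and the difference was -1.73 ± 0.22 (adjusted p = 0.0046). STC2, stanniocalcin 2, a secreted inhibitor of a protease of the insulin-like growth factor system, was at 740.3, 879 and 761 CPM in the young and 399, 446 and 386 CPM in the senescent libraries with TRF2 and at 697, 734 and 665 and 656, 641 and 672 CPM with the empty vector, and the difference was -0.86 ± 0.12 (adjusted p = 0.0074). ASS1, which makes argininosuccinate, was at 14.7, 13.6 and 14.9 CPM in the young and 5.96, 6.4 and 5.87 CPM in the senescent libraries with TRF2, and the difference was -1.36 ± 0.20 (adjusted p = 0.0099). SRGN, the proteoglycan serglycin, was at 41.5, 38.8 and 43.6 CPM in the young and 65.5, 60.8 and 73.5 CPM in the senescent libraries with TRF2, where it rose by 0.69, against a log2 fold change of -0.22 with the empty vector, and the difference was 0.91 ± 0.12 (adjusted p = 0.0058). Among the lists, the senescence effect was lower with TRF2 for 11 of 61 mitosis genes and 7 of 39 interferon-stimulated genes. The same was true of 7 of the 13 genes of mitochondrial DNA, which held 2.22% to 4.21% of the counts in the senescent empty-vector libraries. Over all genes the share was 0.956%. The fit of the 12 libraries gave 7 such genes in all, so these list counts cannot all hold in it.

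**Figure D2:**
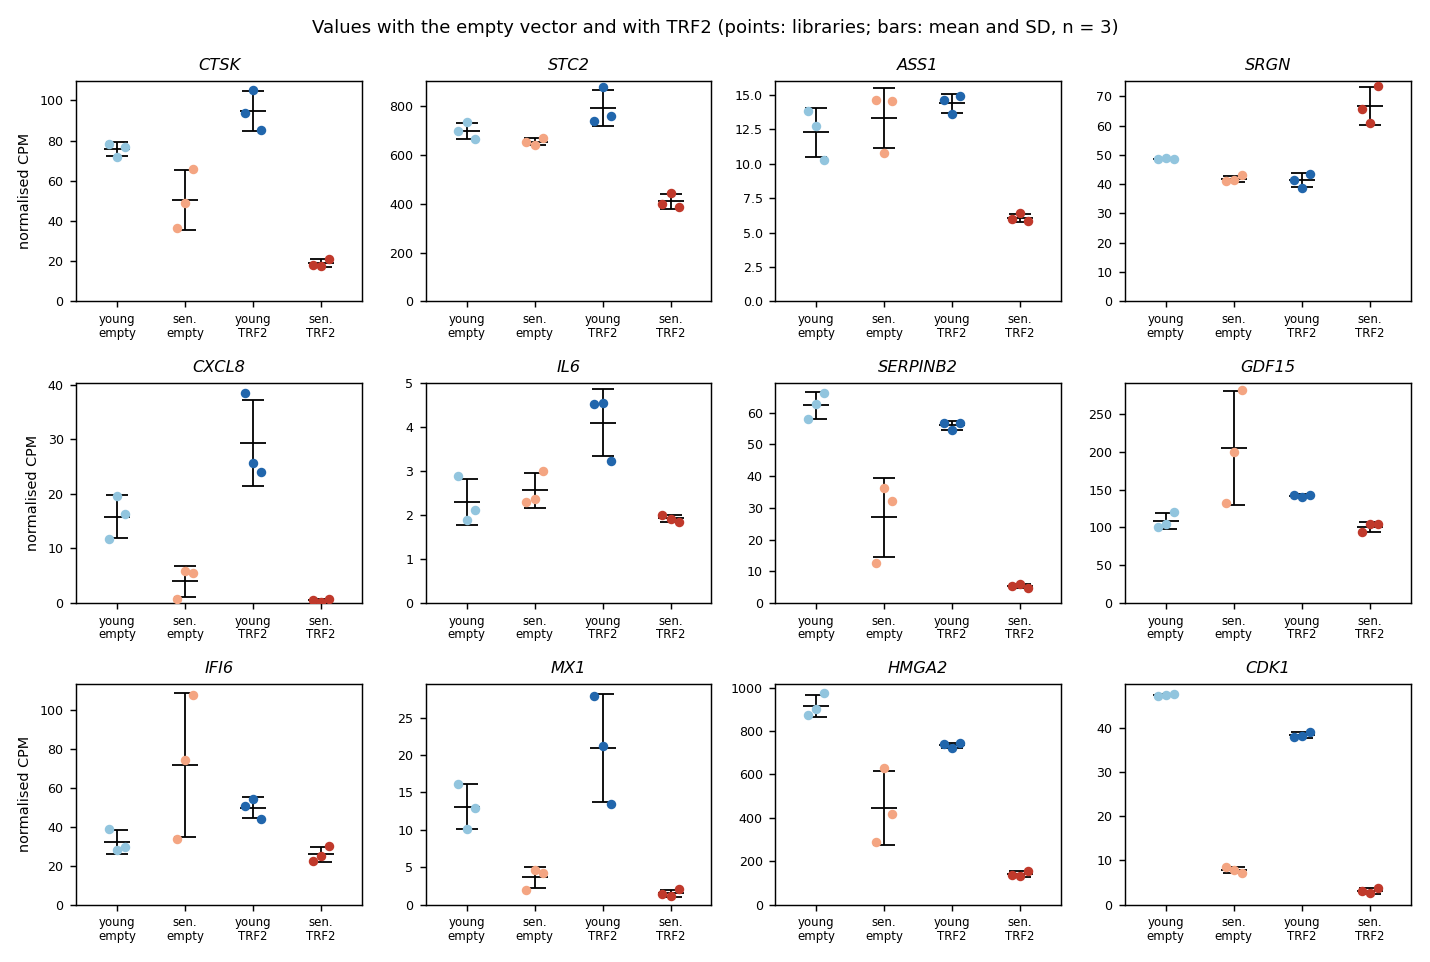
Normalised CPM (y axes, from 0) of 12 genes in each library of the young and senescent cells with the empty vector and with TRF2, with the mean and SD of each group. CTSK, STC2, ASS1 and SRGN are set apart in the senescent cells with TRF2, and the senescent empty-vector group has the widest spread of the groups in GDF15, IFI6 and HMGA2.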

How the data were processed

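Reads had been trimmed (Trimmomatic) and aligned to GRCh38 (STAR) by the authors, who deposited raw read counts for each gene. Annotation release and strand setting are not given in the sources used here. Of 57272 genes in the table, 324 were absent from GENCODE 44 and had no GC content or exon sharing here. All 15 libraries entered 1 model with 5 group means in edgeR 4.0.16 (R 4.3.3): TMM normalization, filterByExpr, quasi-likelihood tests and Benjamini-Hochberg adjustment over 15799 genes. Total counts of the 6 libraries ranged from 31895858 to 37341181. Differences between vectors were tested as an interaction. Alternatives included DESeq2 1.42.0, other filters, a replicate block, each library left out, and offsets for GC content and length. The scripts were tested on simulated data. Counting intervals are exact, at 95%, and cover counting error only, and the floor was 3 counts over a group.

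The gene lists and members were chosen with earlier results of these data known. Genes named in the text are list key genes, the members of largest change in each direction, and the protein-coding DEGs of largest change that share no exonic base with other genes, as well as those of smallest interaction p. ASPM, COL4A5, DKC1, H2BC12, H4C9, LBR, MCM6, NCAPG, OAS3, PRC1 and TFEB fall outside that rule and were chosen after their values were seen. Some genes are not reported here.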

Additional observations from a re-analysis of the deposited data

Results flagged for a closer look

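For 23 of the genes named above, the change from young to senescent cells differed between cells with TRF2 and cells with the empty vector by the interaction test of edgeR (adjusted p below 0.05). Values are the log2 fold change with TRF2 minus that with the empty vector. The difference was -1.73 for CTSK, -0.86 for STC2, -1.36 for ASS1 and 0.91 for SRGN, and these 4 passed the test under all alternatives. Among cell cycle and chromatin genes it was -1.002 for CDK1, -0.79 for TOP2A, -0.97 for KIF2C, -0.99 for NCAPG and -1.34 for HMGA2. Among interferon-stimulated genes it was -2.11 for IFI6, -2.01 for IFI44 and -1.93 for MX1. With the empty vector alone their log2 fold changes were 1.16, -1.82 and -1.84, so that of these only IFI6 changed direction. Among secreted and stress proteins it was -3.88 for CXCL8, -1.26 for IL6, -2.17 for SERPINB2, -1.41 for GDF15 and -1.52 for MT1E. GDF15 had log2 fold changes of 0.92 with the empty vector and -0.50 with TRF2, and thus changed direction. IL6 had 0.17 with the empty vector, which was not called, whereas CXCL8 and SERPINB2 fell under both vectors. For the others it was -3.95 for HEPH, -2.15 for NRK, -2.72 for HOXC8, 0.61 for PTGS1, 0.77 for CDH2 and 2.89 for NPY. The 19 genes after the first 4 lost the call under at least 1 alternative, most often when a library was left out. The senescent empty-vector replicate 1 was nearer to the senescent cells with TRF2 than the other 2 replicates were for CXCL8, GDF15 and IFI6. That was also so for HMGA2, SERPINB2, MX1 and IFI44, among others, but not for CDK1, TOP2A and KIF2C. The part of any technical or biological difference was not tested.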

How the results depend on the processing

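Leaving out each library in turn gave 3976 to 4208 genes that rose and 4253 to 4498 that fell, and 1754 to 1891 DEGs that rose and 1830 to 1930 that fell. A test against a log2 change of 0.5 (glmTreat) gave 2392 and 2482 genes. Genes that share no exonic base gave 2199 and 2258 genes, and 981 and 866 DEGs, because fewer genes were tested. Replicate numbers recur across the groups, but deviations from the group means of libraries with the same number correlated by 0.007 to 0.056 and the numbers were not taken as a pairing. With a replicate block 4492 genes rose and 4769 fell.

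The log2 fold change of TERF2 was 0.0351 to 0.7574 when a library was left out. The difference between vectors, 151 genes lower and 28 higher, became 364 and 146 with DESeq2's Wald test, 7 and 1 with only the 12 libraries compared, and 5 to 1100 and 1 to 989 when a library was left out. With offsets for GC content and length 131 were higher. The direction of COL1A1 reversed with those offsets (-0.5761, and -0.58 with the replicate block), and its value was -0.111 to 0.0879 when a library was left out, where that of FN1 was -0.2313 to 0.0311. The cause was not tested. Depth limits mainly the histone, protocadherin and HOX lists, many of whose members had too few counts to be tested.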
